A study of Rattus norvegicus with 23 samples.

Results

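Iron handling was followed through 10 rat genes of iron uptake, storage, export, heme breakdown and iron sensing: Tfrc, Steap3, Slc11a2, Fth1, Ftl1, Slc40a1, Hmox1, Aco1, Ireb2 and Ncoa4. They were picked by symbol for their roles, at a time when earlier results of these data were known. Of the 10 genes, 9 had a row with their symbol in the table of 30452 genes, 8 had counts, and these 8 were among the 14777 genes tested. Ncoa4 had 0 counts in all 23 samples, and Slc40a1, the iron exporter ferroportin, was not analysed here.

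The samples came from NRK-52E, a rat kidney epithelial line labelled NRKE, and NRK-49F, a rat kidney fibroblast line labelled NRKF. Both lines grew in DMEM with FCS, were held without FCS for 24 h, and then stayed for 48 h at pH 7.4 (control) or at pH 6.0, which was set with HCl. Poly(A) RNA was sequenced from 6 samples of NRK-52E at pH 7.4, 6 at pH 6.0, 6 of NRK-49F at pH 7.4 and 5 at pH 6.0. Each cell type is represented by a single established line, and no in vivo tissue or genetic change is involved.

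Cells take up iron as transferrin bound to the transferrin receptor, reduce it in the endosome and pass it to the cytosol through a metal transporter. Spare iron is kept in ferritin, a shell of heavy chains, which oxidise iron, and light chains, which favour its deposition in the core. Iron regulatory proteins bind hairpins called iron-responsive elements when iron is scarce, which protects the transferrin receptor mRNA from decay and blocks translation of ferritin mRNA. Ferritin and heme oxygenase genes are also known targets of the oxidative stress factor NRF2. The proximal tubule, the kind of epithelium from which NRK-52E is commonly said to derive, reabsorbs filtered iron and stores it in ferritin.

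RefSeq promoter windows on GRCr8 were at hand for 7 of the 10 genes, with none for Fth1, Ftl1 or Hmox1. In each window 4 motifs were searched on both strands: ACGTG (the hypoxia response core), CACGTG (an E-box of the CLEAR type, which holds the first motif), TGACNNNGC (the antioxidant response core) and TGACGT (the cAMP response core). The 250 bases before the start site are shown for Tfrc and Steap3, an uptake receptor and an endosomal reductase whose mRNA changed in opposite directions at pH 6.0 in NRK-52E, with motif matches in capitals. Tfrc lies on the minus strand of chromosome 11 (chr11:81690319-81690568) and Steap3 on the minus strand of chromosome 13 (chr13:33944357-33944606).
Tfrc: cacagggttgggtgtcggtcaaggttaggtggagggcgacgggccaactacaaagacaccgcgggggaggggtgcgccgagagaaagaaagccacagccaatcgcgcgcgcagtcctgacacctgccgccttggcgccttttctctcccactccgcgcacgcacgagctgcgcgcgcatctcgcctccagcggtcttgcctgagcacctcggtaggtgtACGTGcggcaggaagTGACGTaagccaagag
Steap3: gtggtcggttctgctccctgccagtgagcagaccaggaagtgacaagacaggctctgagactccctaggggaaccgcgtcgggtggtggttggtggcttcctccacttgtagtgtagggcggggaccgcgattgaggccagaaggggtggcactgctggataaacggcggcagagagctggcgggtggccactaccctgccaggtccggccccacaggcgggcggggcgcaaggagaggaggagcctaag
The Tfrc window held ACGTG with its first base 31 bases before the start (position -31) and TGACGT at position -16. ACGTG was found in 19.3% and TGACGT in 7.94% of 33469 rat promoter windows of 300 bases, so such matches are common. The windows of Steap3, Slc11a2, Aco1 and Ireb2 held none of the 4 motifs, of which CACGTG occurs in 6.42% and TGACNNNGC in 12.1% of all windows. The Ncoa4 window held ACGTG at position -75 and TGACCTGGC, a match to TGACNNNGC, at position -52. A match is a run of letters and not evidence of binding.

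Total counts ranged from 16412564 to 34250535 per sample. Levels are given as FPM, fragments per 1000000 of the TMM-scaled library size, which are not divided by gene length and so are compared between samples but not between genes. Against their labels, NRK-52E samples had Epcam, Krt18, Cldn4 and Cldn7 at 3 counts or fewer and Cdh1 at no more than 0.349 FPM. In NRK-49F, Epcam, Cldn4 and Cldn7 were also at 3 counts or fewer and Cdh1 at no more than 0.144 FPM. Krt18 was not at 3 counts or fewer in every NRK-49F sample. The tight junction gene Tjp3 was at 11.1 to 26.3 FPM in NRK-52E against 0.612 to 2.23 FPM in NRK-49F. Krt8, a keratin on the same list, was abundant in both lines, at 195 to 651 FPM in NRK-52E and 438 to 1206 FPM in NRK-49F. The epithelial sum, over the 7 of 8 listed markers with a row, was therefore higher in NRK-49F. Its median at pH 7.4 was 779 FPM against 488 FPM in NRK-52E. In NRK-49F the sum ran from 439 to 1209 FPM over both pH values and was nearly all Krt8, which leaves little for Krt18. The sum of 8 fibroblast markers was 10515 to 13632 FPM in NRK-49F and 4901 to 8104 FPM in NRK-52E at pH 7.4, and 7320 to 9880 and 1830 to 3110 FPM at pH 6.0. In NRK-52E nearly all of it was the collagen gene Col3a1, at 1789 to 8037 FPM against 366 to 1415 FPM in NRK-49F. Col1a2 was at 2930 to 4887 FPM in NRK-49F, and in NRK-52E it reached 52.9 FPM at pH 7.4 (replicate A021) and no more than 0.670 FPM at pH 6.0. The part of these marker differences in the results below was not tested. Macrophage genes Adgre1 and Cd163 were at 3 counts or fewer in all samples, while Cd68, a lysosomal membrane gene on the same list of 5, had a median of 31.4 FPM in control NRK-49F samples and 229.5 FPM in acidotic ones. The erythroid marker sum stayed at or under 0.448 FPM. Replicate A042 (NRK-49F, pH 6.0) stood apart in several iron genes and had the lowest scaling factor, 0.804. Values without it are therefore given beside the NRK-49F acid change of each tested iron gene and of the ratios. Other NRK-49F values at pH 6.0 include A042 unless stated. The labels place NRK-52E samples in sample groups 1 and 3 and NRK-49F samples in groups 4 and 6, so that sample group and line cannot be told apart.

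At pH 6.0 both lines held more ferritin and Steap3 mRNA than at pH 7.4, and NRK-52E held less Tfrc and Aco1 mRNA. In NRK-52E, 6 of the 8 genes passed the threshold: Ftl1, Steap3, Fth1 and Slc11a2 rose, and Tfrc and Aco1 fell. In NRK-49F, 4 of 8 passed, and Ftl1, Hmox1, Fth1 and Steap3 all rose. The test called 61.2% of all tested genes in NRK-52E (24.7% higher and 36.6% lower) and 28.9% in NRK-49F (14.5% higher and 14.4% lower). With 8 genes, nothing is read from these counts against that background. The median log2 fold change of the 8 genes was 0.01 in NRK-52E, where all genes had -0.12, and 0.41 in NRK-49F, where all genes had 0.00. Fewer cells that express a gene and less of its RNA per cell cannot be told apart in such bulk samples.

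Tfrc (ENSRNOG00000001766, chromosome 11) encodes transferrin receptor 1, the main entry route of transferrin iron. In NRK-52E its lowest, median and highest levels were 27.1, 35.9 and 53.8 FPM at pH 7.4 and 14.3, 15.8 and 18.4 FPM at pH 6.0. Every acidotic sample lay below every control sample. The mean fell from 38.7 ± 10.1 (SD, n = 6) to 16.2 ± 1.73 FPM (n = 6), a log2 fold change of -1.26 ± 0.17 (SE), or 2.39-fold lower, with an edgeR adjusted p of 9.80e-07. The fall was present in sample group 1 (1.99-fold lower, edgeR adjusted p = 3.72e-05) and in sample group 3 (2.52-fold lower, edgeR adjusted p = 0.000183).

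In NRK-49F, Tfrc ranged from 17.0 to 25.1 FPM at pH 7.4 with a median of 22.3. The 5 acidotic samples had 9.07 (A042), 13.5, 18.8, 19.96 and 19.4 FPM. The groups overlapped, since the 3 acidotic samples of sample group 6 lay inside the control range. The log2 fold change of -0.45 ± 0.18 did not pass the threshold (edgeR adjusted p = 0.0632). It was -0.97 in sample group 4 (edgeR adjusted p = 0.0393) and -0.20 in sample group 6 (edgeR adjusted p = 0.467), and -0.30 without A042 (edgeR adjusted p = 0.190).

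Steap3 (ENSRNOG00000049471, chromosome 13) encodes an endosomal ferrireductase that readies iron for export to the cytosol. In NRK-52E it lay at 6.60, 9.07 and 11.6 FPM (lowest, median and highest) at pH 7.4 and at 18.8, 20.5 and 24.2 FPM at pH 6.0. No acidotic sample overlapped a control. The rise of 2.28-fold (log2 1.19 ± 0.10, edgeR adjusted p = 8.23e-10) was 0.93 in sample group 1 and 1.66 in sample group 3 on the log2 scale, and both passed. In NRK-49F the level was 86.1, 90.3 and 98.4 FPM at pH 7.4, and 159 (A042), 177, 178, 176 and 174 FPM at pH 6.0. All 5 acidotic samples stood above all 6 controls. The rise was 1.90-fold (log2 0.93 ± 0.10, edgeR adjusted p = 2.30e-07), with 0.92 in sample group 4, 0.90 in sample group 6 and 0.95 without A042.

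Slc11a2 (ENSRNOG00000019550, chromosome 7) encodes the divalent metal transporter DMT1, which moves ferrous iron together with protons. NRK-52E had 50.6, 52.9 and 55.9 FPM at pH 7.4 and 56.2, 61.5 and 69.1 FPM at pH 6.0. The acidotic samples all lay above the controls, but the rise was small, 1.18-fold (log2 0.23 ± 0.06, edgeR adjusted p = 0.00316). It was 0.20 in sample group 1 and 0.42 in sample group 3, both past the threshold. In NRK-49F the mean was 36.5 ± 1.46 FPM (n = 6) at pH 7.4 and 33.9 ± 3.04 FPM (n = 5) at pH 6.0. The ranges overlapped and the log2 fold change of -0.11 ± 0.07 did not pass (edgeR adjusted p = 0.259), nor did -0.07 without A042 (edgeR adjusted p = 0.520).

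**Figure D1:**
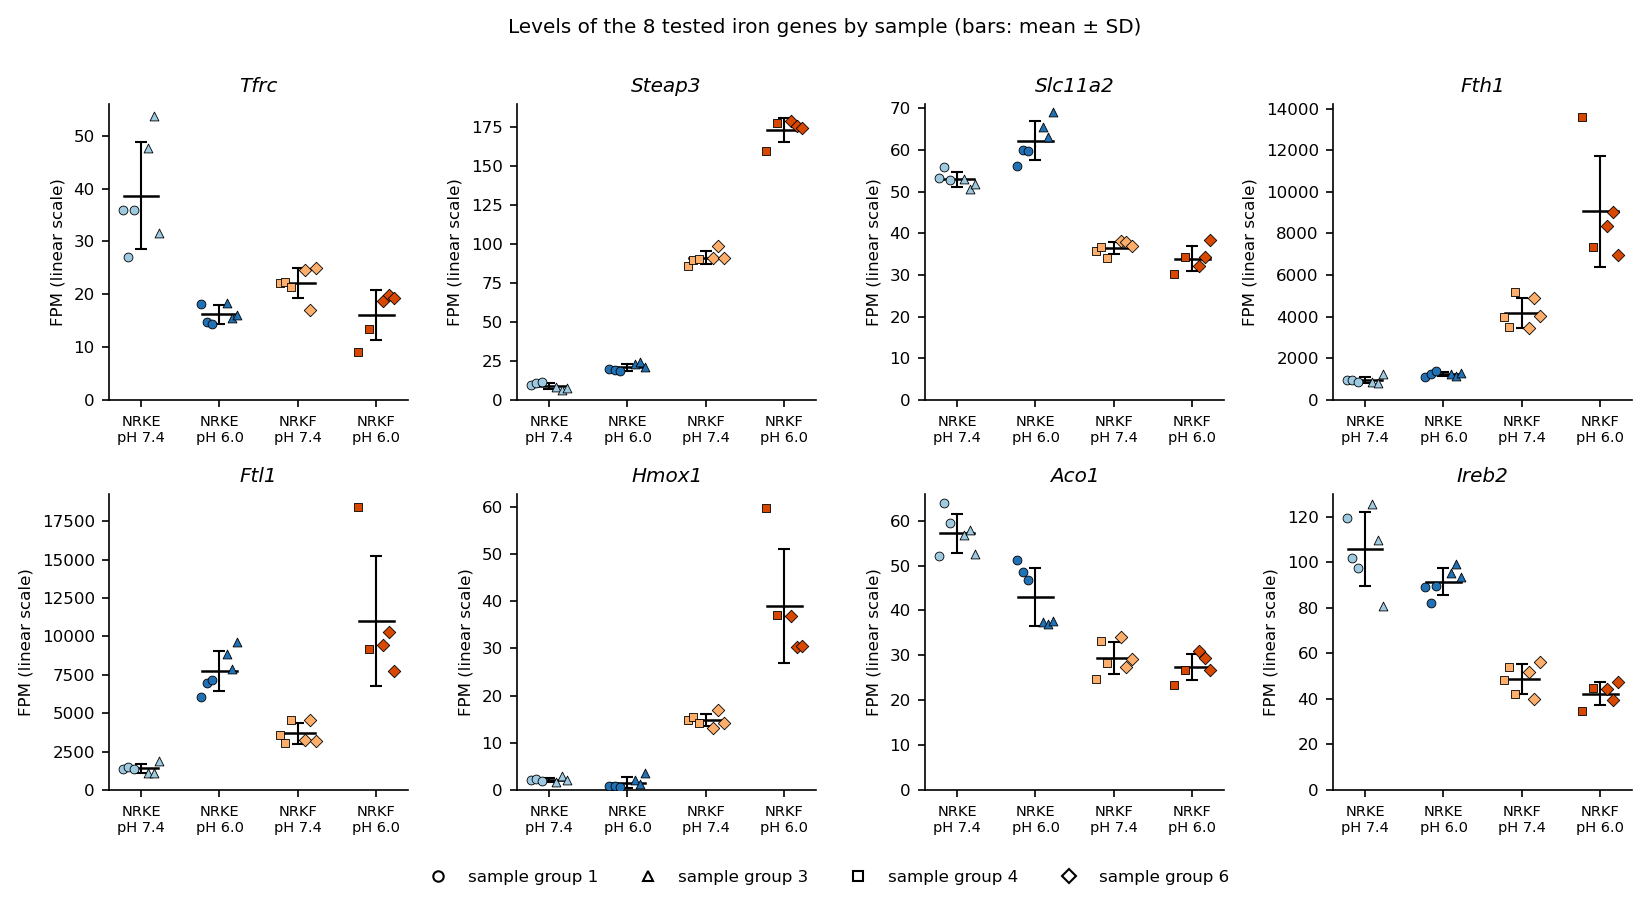
Level of each of the 8 tested iron genes in FPM (linear axis from 0) in every sample, by line and pH. Points are samples with shapes for the sample group, and bars give the mean ± SD. Ftl1 in NRK-52E goes from at most 1884 FPM at pH 7.4 to at least 6037 FPM at pH 6.0, and a single NRK-49F sample at pH 6.0 (A042) stands above the other 4 in Fth1, Ftl1 and Hmox1.

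Ftl1 (ENSRNOG00000064385, chromosome 1), the light chain of ferritin, had the largest change of the 8 genes in both lines. In NRK-52E it had 1124, 1386 and 1884 FPM (lowest, median and highest) at pH 7.4 and 6037, 7529 and 9668 FPM at pH 6.0. The lowest acidotic sample was well above the highest control. The mean rose from 1406 ± 282 to 7757 ± 1325 FPM (n = 6 each), a 5.52-fold rise (log2 2.46 ± 0.19, edgeR adjusted p = 1.50e-10). The log2 rise was 2.31 in sample group 1 and 2.75 in sample group 3.

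In NRK-49F, Ftl1 had 3091, 3419 and 4561 FPM at pH 7.4. At pH 6.0 the 5 samples had 18417 (A042), 9165, 9443, 10264 and 7763 FPM. All 5 lay above the controls, and A042 was far above the other 4. The rise was 2.97-fold (log2 1.57 ± 0.19, edgeR adjusted p = 1.23e-06), and 2.47-fold without A042 (log2 1.31, edgeR adjusted p = 1.53e-06). It was 1.87 in sample group 4, which holds A042, and 1.32 in sample group 6.

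Fth1 (ENSRNOG00000022619, chromosome 1), the heavy chain with ferroxidase activity, moved less in NRK-52E. The level was 827, 914 and 1271 FPM at pH 7.4 and 1114, 1239 and 1378 FPM at pH 6.0. The highest control (A035) lay inside the acidotic range, while the other 5 controls lay below it. The rise of 1.29-fold (log2 0.36 ± 0.15) passed the threshold with an edgeR adjusted p of 0.0362, but the call was lost when any 1 of 8 NRK-52E replicates was left out (A021, A022, A023, A026, A033, A034, A036 or A038), with an edgeR adjusted p of up to 0.0797. It was 0.50 in sample group 1 (edgeR adjusted p = 0.000506) and 0.39 in sample group 3 (edgeR adjusted p = 0.0757).

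In NRK-49F, Fth1 had 3446, 4021 and 5202 FPM at pH 7.4. The acidotic samples had 13581 (A042), 7353, 8345, 9044 and 6990 FPM. None of them overlapped a control. The rise was 2.17-fold (log2 1.12 ± 0.15, edgeR adjusted p = 5.99e-06) and 0.93 on the log2 scale without A042 (edgeR adjusted p = 1.23e-05). It was 1.30 in sample group 4 (edgeR adjusted p = 0.0591) and 0.97 in sample group 6 (edgeR adjusted p = 0.00853).

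Together, the Fth1 and Ftl1 rows took 0.252% ± 0.037 of all counts in NRK-52E at pH 7.4 and 0.954% ± 0.132 at pH 6.0. In NRK-49F they took 0.739% ± 0.094 at pH 7.4 and 1.80% ± 0.439 at pH 6.0, with 2.57% in the highest sample. Ferritin has near-identical copies in the genome and multi-mapping reads were counted, so the rows may share reads. The table has 2 more light chain rows, Ftl1.1 on chromosome 5 and Ftl1.2 on chromosome 10, and the Ftl1 row held 90.5% of all Ftl counts in NRK-52E and 91.5% in NRK-49F at pH 7.4. Ftl1.1 rose by 2.47 and Ftl1.2 by 2.54 on the log2 scale in NRK-52E, and each by 1.61 in NRK-49F, close to the values of Ftl1. Fthl17a, a heavy chain relative, never exceeded 1 count.

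Ratios within a sample do not depend on library scaling. The log2 ratio of Tfrc to Fth1 counts was -4.66 ± 0.54 (SD, n = 6) at pH 7.4 and -6.26 ± 0.23 (n = 6) at pH 6.0 in NRK-52E. In NRK-49F it was -7.56 ± 0.40 (n = 6) and -9.15 ± 0.81 (n = 5). The ratio was thus 3.03-fold lower in NRK-52E and 3.02-fold lower in NRK-49F, with no overlap between the pH values in either line (61.2% and 28.9% of single genes were called in these lines). Whether both lines differed in this fall was not tested. Without A042 the difference in NRK-49F was -1.24 in place of -1.59. The single genes behind this ratio moved unlike in the lines. In NRK-52E the log2 fold change was -1.26 for Tfrc and 0.36 for Fth1. In NRK-49F it was -0.45 for Tfrc, which did not pass, and 1.12 for Fth1. The log2 ratio of Fth1 to Ftl1 went from -0.54 ± 0.11 to -2.64 ± 0.23 in NRK-52E and from 0.18 ± 0.09 to -0.25 ± 0.12 in NRK-49F. Without A042 the latter difference was -0.38 in place of -0.43. Light chain mRNA therefore gained on heavy chain mRNA by 4.27-fold in NRK-52E and 1.35-fold in NRK-49F, and protein was not measured. Each of the 4 differences had an adjusted p of 0.00433 in an exact two-sided permutation test, and the smallest p that the design allows is 0.00216 in NRK-52E and 0.00433 in NRK-49F. Within a sample group the test cannot pass the threshold, and the 8 differences there all pointed down, from -0.35 to -2.37.

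**Figure D2:**
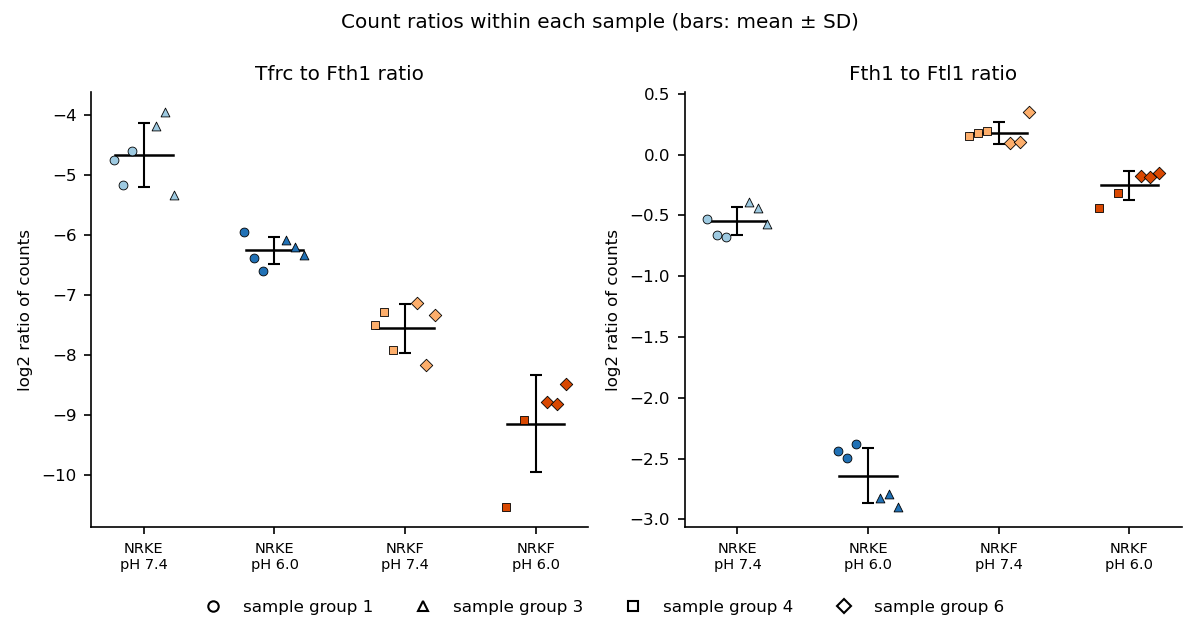
Log2 ratio of Tfrc to Fth1 counts (left) and of Fth1 to Ftl1 counts (right) in every sample, by line and pH. Points are samples, shapes mark the sample group and bars give the mean ± SD. At pH 6.0 all samples of a line lie below its controls in both panels, and the Fth1 to Ftl1 ratio in NRK-52E reaches -2.90.

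Hmox1 (ENSRNOG00000014117, chromosome 19) encodes heme oxygenase 1, which frees iron from heme. In NRK-49F it had 13.1, 14.6 and 16.9 FPM (lowest, median and highest) at pH 7.4. The acidotic samples had 59.8 (A042), 37.0, 37.0, 30.3 and 30.6 FPM, all above the controls. The rise was 2.63-fold (log2 1.39 ± 0.25, edgeR adjusted p = 0.000186), and 2.28-fold without A042 (edgeR adjusted p = 0.00114). It was 1.70 in sample group 4 and 1.13 in sample group 6.

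Hmox1 was scarce in NRK-52E, at 1.64, 2.14 and 3.00 FPM at pH 7.4 and 0.670, 1.11 and 3.60 FPM at pH 6.0, from 15 to 78 counts per sample. The acidotic samples lay both below and above the controls. The log2 fold change of -0.48 ± 0.30 did not pass (edgeR adjusted p = 0.172). In sample group 1 all 3 acidotic samples were under 1 FPM and the change was -1.37 (edgeR adjusted p = 0.000998), while in sample group 3 it was 0.18 (edgeR adjusted p = 0.711). Without A038, the highest acidotic sample, the change was -0.92 and passed (edgeR adjusted p = 0.00405).

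Aco1 (ENSRNOG00000005849, chromosome 5) encodes iron regulatory protein 1, which is cytosolic aconitase when it carries an iron-sulfur cluster. In NRK-52E it had 52.2, 57.4 and 63.9 FPM at pH 7.4 and 36.9, 42.2 and 51.2 FPM at pH 6.0. All acidotic samples lay below the controls. The fall was 1.33-fold (log2 -0.41 ± 0.10, edgeR adjusted p = 0.00104). It was -0.50 in sample group 3 (edgeR adjusted p = 0.00152), and in sample group 1 the value of -0.18 did not pass (edgeR adjusted p = 0.103). In NRK-49F the mean was 29.5 ± 3.56 FPM (n = 6) and 27.4 ± 2.92 FPM (n = 5), with a log2 fold change of -0.10 ± 0.11 that did not pass (edgeR adjusted p = 0.498), and of -0.05 without A042 (edgeR adjusted p = 0.787).

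Ireb2 (ENSRNOG00000013271, chromosome 8) encodes iron regulatory protein 2, which is degraded when iron is ample. In NRK-52E its mean was 105.8 ± 16.2 FPM in controls and 91.4 ± 5.88 FPM under acidosis (n = 6 each). In NRK-49F the means were 48.8 ± 6.49 FPM (n = 6) and 42.2 ± 5.05 FPM (n = 5). Ranges overlapped in both lines. The log2 fold change was -0.21 ± 0.10 in NRK-52E (edgeR adjusted p = 0.0775) and -0.21 ± 0.11 in NRK-49F (edgeR adjusted p = 0.154), and neither passed. In NRK-49F it was -0.15 without A042 (edgeR adjusted p = 0.363). Without A035, the lowest control, the NRK-52E value was -0.28 and passed (edgeR adjusted p = 0.0147).

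Ncoa4 (ENSRNOG00000019768, chromosome 16), the receptor that delivers ferritin to the lysosome, was listed at 0 counts in every sample. Given 3 counts as the limit of a count of 0, this row allows at most 0.203 FPM in replicate A041, the shallowest sample, for counting error only. A further row, Ncoa4.1 on the same chromosome, held 2 to 30 counts per sample and was not called in NRK-52E (edgeR adjusted p = 0.561) or NRK-49F (edgeR adjusted p = 0.916). Reads of this gene could have been split or dropped between the rows, so no statement on its level is made.

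Whether acidosis acted differently in both lines was tested directly as the NRK-52E change minus the NRK-49F change. The difference passed for 5 of the 8 genes, where 41.4% of all tested genes passed. Tfrc differed by -0.81 ± 0.25 (edgeR adjusted p = 0.0108), with the larger fall in NRK-52E. Ftl1 differed by 0.89 ± 0.27 (edgeR adjusted p = 0.00952), with the larger rise in NRK-52E. Fth1 differed by -0.75 ± 0.21 (edgeR adjusted p = 0.00644) and Hmox1 by -1.88 ± 0.39 (edgeR adjusted p = 0.000505), both with the larger rise in NRK-49F. Slc11a2 differed by 0.34 ± 0.09 (edgeR adjusted p = 0.00542).

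The differences of Steap3 (0.27, 95% interval -0.02 to 0.55), Aco1 (-0.30, -0.59 to -0.02 before adjustment) and Ireb2 (0.00, -0.31 to 0.31) did not pass, with edgeR adjusted p of 0.146, 0.0964 and 1.00. The calls varied with the sample groups. Between groups 1 and 4 only 1 of the 8 genes passed, Hmox1, where 3248 of all 15273 tested genes did. Between groups 3 and 6 it was 5 of 8 (Tfrc, Steap3, Slc11a2, Ftl1 and Aco1), where 5595 of 14666 did. Over all samples, 6120 of 14777 tested genes passed. For Tfrc the difference was -0.10 between groups 1 and 4 and -1.22 between groups 3 and 6, and for Ftl1 it was 0.36 and 1.34. Hmox1 differed by -3.15 between groups 1 and 4 (edgeR adjusted p = 3.91e-05) and by -1.04 between groups 3 and 6, which did not pass (edgeR adjusted p = 0.0588). Fth1 passed in neither pair, at -0.88 and -0.67. Without A042 the same count of 5 was reached, with -0.96 for Tfrc, 1.16 for Ftl1 and -0.56 for Fth1.

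**Figure D3:**
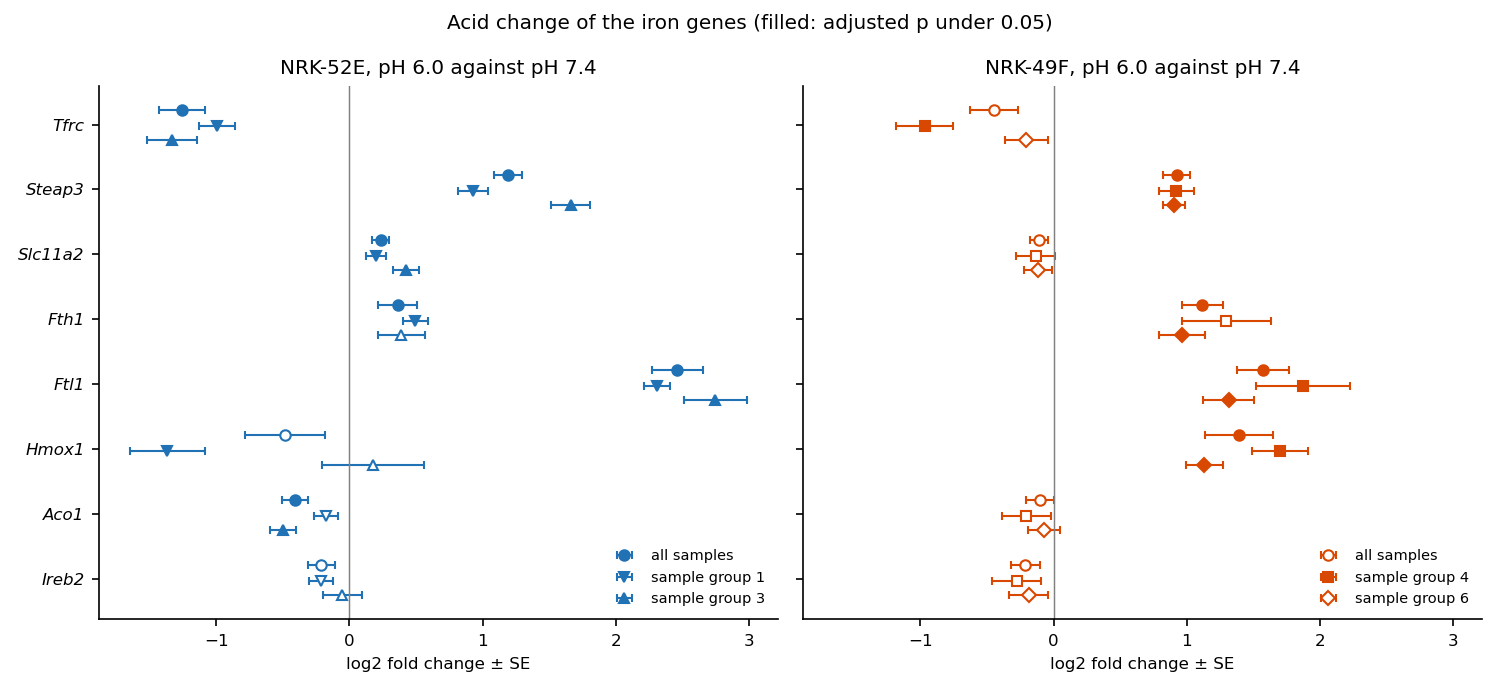
Log2 fold change (± SE) of the 8 tested iron genes from pH 7.4 to pH 6.0 in NRK-52E (left) and NRK-49F (right), over all samples and within each sample group. Filled symbols have an adjusted p under 0.05. Ftl1 at 2.46 and 1.57 lies farthest right in both lines, and the Hmox1 values of NRK-52E fall on both sides of 0, at -1.37 in sample group 1 and 0.18 in sample group 3.

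The lines also differed in the starting level of these genes. At pH 7.4 all 8 genes differed between NRK-52E and NRK-49F, where 68.8% of all tested genes did, and at pH 6.0 it was 7 of 8 and 75.5%. NRK-52E had less Steap3 (9.87-fold), Hmox1 (6.76-fold), Fth1 (4.36-fold) and Ftl1 (2.63-fold) than NRK-49F at pH 7.4. It had more Ireb2 (2.17-fold), Aco1 (1.94-fold), Tfrc (1.75-fold) and Slc11a2 (1.45-fold). At pH 6.0 the log2 difference of Tfrc was -0.00 (95% interval -0.35 to 0.35, edgeR adjusted p = 0.998). For Ftl1 it was -0.51 (edgeR adjusted p = 0.0202), a call lost without A042 (-0.24, edgeR adjusted p = 0.175) or without A024 (-0.44, edgeR adjusted p = 0.0502). Hmox1 was 24.8-fold and Fth1 7.34-fold lower in NRK-52E at pH 6.0.

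For Tfrc the order of the condition means was NRK-52E at pH 7.4, then NRK-49F at pH 7.4, then both lines at pH 6.0, and those last conditions did not differ beyond their spread. The NRK-49F conditions did not differ past the threshold either. Ftl1 ran from NRK-52E at pH 7.4 through NRK-49F at pH 7.4 and NRK-52E at pH 6.0 to NRK-49F at pH 6.0. Fth1, Steap3 and Hmox1 were higher in every NRK-49F sample than in any NRK-52E sample. For Ireb2, Aco1 and Slc11a2 the reverse held, with every NRK-52E sample above every NRK-49F sample.

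Genes around the 8 were drawn from 7 lists with 79 tested genes. In NRK-52E, 49 of the 79 passed (29 higher and 20 lower), and in NRK-49F 37 passed (27 higher and 10 lower), or 32 without A042. Of all tested genes, 4270 of 14777 passed in NRK-49F, or 3660 of 14914 without A042. Of 12 list genes named below as called in NRK-49F, 11 were also called without A042 and all 12 had the same direction. The exception was Cisd1 (log2 0.26, edgeR adjusted p = 0.168). These 12 leave out Lcn2, Cp, Abcb6, Blvrb and Osgin1. Those genes are also named as called in NRK-49F, and no value without A042 is given for them. Lists are described by their counts and medians only. The percentages of all tested genes given above, 61.2% and 28.9%, apply as background.

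Of 14 tested genes of iron uptake and transport, 2 rose and 3 fell in NRK-52E, and 2 rose and 4 fell in NRK-49F. Slc39a14, an importer of iron outside transferrin, rose in NRK-52E from 13.0 ± 1.59 to 23.5 ± 2.83 FPM (log2 0.85, edgeR adjusted p = 9.65e-07). In NRK-49F it rose from 45.5 ± 5.64 to 64.4 ± 10.8 FPM (log2 0.50, edgeR adjusted p = 0.00209). Lcn2, which binds iron-laden siderophores and marks tubule injury, fell in NRK-52E from 6.12 ± 1.31 to 0.782 ± 0.257 FPM (log2 -3.00, edgeR adjusted p = 6.23e-11). It also fell in NRK-49F (log2 -0.72, edgeR adjusted p = 0.00289). The metalloreductase gene Steap2 fell in NRK-49F from 164.7 ± 25.9 to 51.5 ± 7.82 FPM (log2 -1.68, edgeR adjusted p = 2.67e-09) and did not pass in NRK-52E (log2 -0.02, edgeR adjusted p = 0.906). Its relative Steap3 rose in both lines.

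Of 7 tested genes of iron export and systemic control, 6 fell in NRK-52E and the other did not pass, and 1 rose and 3 fell in NRK-49F. The list median was -0.80 in NRK-52E and -0.34 in NRK-49F. Cp, the ferroxidase ceruloplasmin that works beside ferroportin, fell by 0.97 on the log2 scale in NRK-52E (edgeR adjusted p = 0.0106). It fell in NRK-49F as well (log2 -0.99, edgeR adjusted p = 0.0249). Bmp6, a ligand that raises hepcidin in the liver, fell by 1.08 in NRK-49F (edgeR adjusted p = 0.00224). It also fell in NRK-52E (log2 -0.86, edgeR adjusted p = 0.00217). The gene that rose in NRK-49F was Erfe, the erythroferrone gene, which was named after its values were seen. It went from 2.95 ± 0.209 to 11.4 ± 2.54 FPM (log2 1.95, edgeR adjusted p = 3.06e-06). Erfe did not pass in NRK-52E (log2 -0.27, edgeR adjusted p = 0.511).

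Of 6 tested genes of ferritin delivery and iron sensing, 5 rose in NRK-52E and 2 rose in NRK-49F, and the others did not pass. Pcbp2, a chaperone that carries iron to ferritin, rose in NRK-52E from 271.1 ± 7.11 to 387.5 ± 30.1 FPM (log2 0.52, edgeR adjusted p = 3.69e-08). It did not pass in NRK-49F (log2 0.15, edgeR adjusted p = 0.0592). Cisd1, an iron-sulfur protein of the outer mitochondrial membrane, rose in NRK-49F by 0.42 on the log2 scale (edgeR adjusted p = 0.0327). It also rose in NRK-52E (log2 0.51, edgeR adjusted p = 0.00310).

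Of 20 genes of mitochondrial iron and iron-sulfur clusters, 8 rose and 5 fell in NRK-52E, and 5 rose and 1 fell in NRK-49F. Slc25a28, the mitochondrial iron importer mitoferrin 2, rose in NRK-52E from 45.3 ± 6.72 to 162.4 ± 44.7 FPM (log2 1.84, edgeR adjusted p = 1.85e-09). In NRK-49F it rose from 56.8 ± 8.36 to 107.1 ± 29.2 FPM (log2 0.92, edgeR adjusted p = 0.000247). Iba57, a late factor of cluster assembly, fell in NRK-52E by 1.32 (edgeR adjusted p = 3.10e-10). It did not pass in NRK-49F (log2 -0.13, edgeR adjusted p = 0.419). The mitochondrial transporter gene Abcb8 fell in NRK-49F by 0.26 (edgeR adjusted p = 0.00361) and fell more in NRK-52E (log2 -0.72, edgeR adjusted p = 9.26e-10).

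Heme genes moved in both directions. Of 12 tested genes of heme synthesis, 4 rose and 4 fell in NRK-52E, and 5 rose and 1 fell in NRK-49F. Uros, uroporphyrinogen III synthase, fell in both lines (log2 -2.02, edgeR adjusted p = 1.77e-09, and log2 -1.05, edgeR adjusted p = 0.000136). The porphyrin transporter gene Abcb6 rose in NRK-52E from 46.3 ± 3.96 to 106.2 ± 6.96 FPM (edgeR adjusted p = 5.60e-11). It also rose in NRK-49F (log2 0.29, edgeR adjusted p = 0.0198). Ppox, protoporphyrinogen oxidase, rose in NRK-49F by 0.55 (edgeR adjusted p = 0.000542) and in NRK-52E (log2 0.36, edgeR adjusted p = 0.00514). Of 12 tested genes of heme breakdown and transport, which leave out Hmox1, 4 rose and 2 fell in NRK-52E, and 4 rose and 1 fell in NRK-49F. Blvrb, a biliverdin reductase, rose in NRK-52E from 48.2 ± 7.79 to 142.9 ± 22.6 FPM (log2 1.57, edgeR adjusted p = 9.71e-10). It also rose in NRK-49F (log2 0.83, edgeR adjusted p = 7.80e-05). Slc48a1, which moves heme out of the lysosome, rose in NRK-49F (log2 1.00, edgeR adjusted p = 1.80e-07) and fell in NRK-52E (log2 -0.28, edgeR adjusted p = 0.0211). Slc46a1, a folate carrier that also moves heme and works best in acid, fell in NRK-52E from 54.4 ± 6.86 to 13.9 ± 1.02 FPM (edgeR adjusted p = 1.48e-12) and in NRK-49F by 0.78 on the log2 scale (edgeR adjusted p = 4.43e-05).

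Of 8 tested NRF2 targets, 6 rose in NRK-52E and the others did not pass, and 8 rose in NRK-49F. The list median was 1.30 and 0.96, where all genes had -0.12 and 0.00. Osgin1, an oxidative stress response gene, rose in NRK-52E from 8.84 ± 1.16 to 61.6 ± 9.80 FPM (log2 2.81, edgeR adjusted p = 1.10e-14). It also rose in NRK-49F (log2 0.995, edgeR adjusted p = 7.28e-07). Nqo1, a quinone reductase, rose in NRK-49F from 474.9 ± 47.8 to 2420 ± 617 FPM (log2 2.35, edgeR adjusted p = 1.06e-10). It also rose in NRK-52E (log2 1.55, edgeR adjusted p = 5.12e-09). Prdx1 and Slc7a11 were the targets that did not pass in NRK-52E, a pair named after their values were seen.

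**Figure D4:**
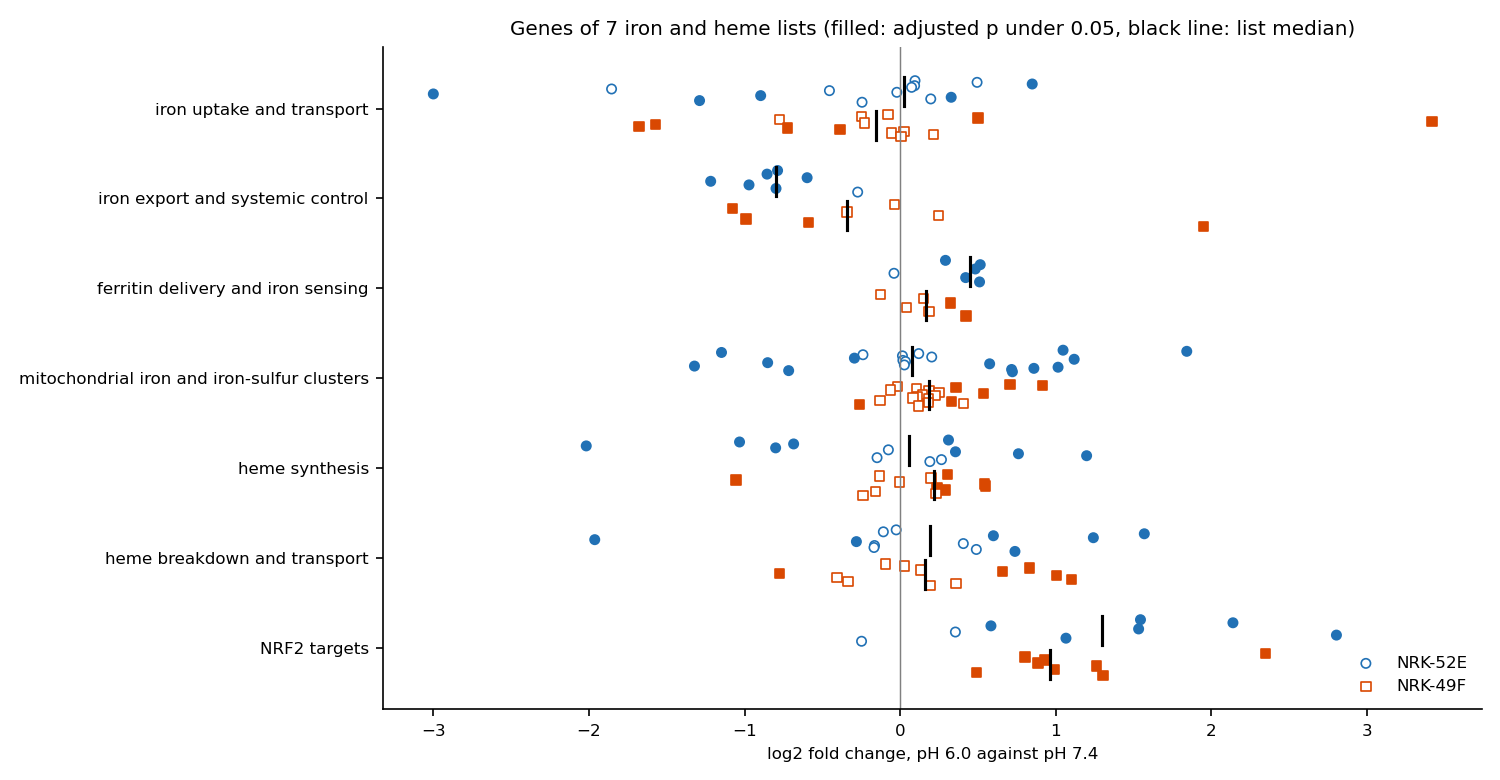
Log2 fold change from pH 7.4 to pH 6.0 of the 79 tested genes of 7 iron and heme lists, in NRK-52E (circles) and NRK-49F (squares). Filled symbols have an adjusted p under 0.05 and black lines give the list medians. The medians of the NRF2 targets, 1.30 and 0.96, lie farthest right, and that of iron export and systemic control in NRK-52E, -0.80, lies farthest left.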

How the data were processed

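Poly(A) RNA of 23 samples of 2 rat lines was measured by paired-end RNA-seq. The deposited values are raw counts per Ensembl gene, which the authors made with HISAT2 2.1.0 and featureCounts on exons, with multi-mapping reads counted. The strand setting is not given in the sources used here. The study's methods name rn7 and the submitters' processing notes rn6, so no coordinates of the table are printed. Samples were grouped by line and pH as labelled. In the table, 13 columns matched no label and were not used. No pair of replicates was alike within sampling noise (chi-square over degrees of freedom of at least 5.91). The labels do not say whether replicates were separate cultures, so p-values measure the spread between samples.

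All samples entered a single 4-group model fitted by edgeR 4.0.16 under R 4.3.3. Filtering used filterByExpr (minimum count 10, minimum total 15), scaling used TMM, and testing used the quasi-likelihood F test, with the Benjamini-Hochberg adjusted p over all 14777 genes and a threshold of 0.05. SE is the absolute log2 fold change over the square root of F. Count ratios were compared by exact permutation tests, 4 in all, adjusted together. On data simulated with 200 genes changed 2-fold in NRK-52E, the test recovered 148 with 5 others called. For the difference between lines it recovered 116 with 7 others, among 14413 genes each. The simulated lines had no other difference, and rises and falls were equal in number. In the data 61.2% of genes were called in NRK-52E, so the simulation does not show how the scaling fares there. Alternatives changed the scaling, filter, test (likelihood ratio, DESeq2 1.42.0), threshold and samples. Plots used matplotlib 3.10.9 under Python 3.11.15. Intervals and limits cover counting error only where they come from counts.

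The genes and lists were chosen with earlier results of these data known. Named genes were the 10 chosen genes and other ferritin rows. In each list and line they were the called genes of largest rise and fall whose mean reached 5 FPM, and for each tested gene the 2 whose log2(FPM + 0.5) had the highest Pearson coefficient with it.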

Additional observations from a re-analysis of the deposited data

Results flagged for a closer look

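In 32 sets of values (8 genes in 4 conditions), 4 had a sample far from the others by Dixon's test, where chance alone gives about 1 in 20. Of these, 3 were replicate A042 of NRK-49F at pH 6.0, with 159 FPM of Steap3, 18417 FPM of Ftl1 and 59.8 FPM of Hmox1. The same sample was the lowest of its condition in Steap3 and the highest in Ftl1 and Hmox1. The other was replicate A035 of NRK-52E at pH 7.4, with 1271 FPM of Fth1, the highest control.

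The acid change differed between NRK-52E and NRK-49F by edgeR's test of the difference for 5 genes. The log2 difference (NRK-52E minus NRK-49F) was -0.81 for Tfrc, 0.34 for Slc11a2, -0.75 for Fth1, 0.89 for Ftl1 and -1.88 for Hmox1. Line and sample group cannot be told apart in these differences.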

How the results depend on the processing

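No value called over all samples changed its direction under the alternatives run. Of those not called there, Hmox1 in NRK-52E was -1.37 in sample group 1 and 0.18 in sample group 3, and the Steap3 difference between lines was 0.67 (groups 3 and 6) and -0.08 (groups 1 and 4). Acid changes of Tfrc, Ftl1, Steap3 and Slc11a2 in NRK-52E, and of Ftl1, Steap3 and Hmox1 in NRK-49F, passed in every one. The median log2 fold change of all genes in NRK-52E was -0.12, -0.00 when each line was filtered, scaled and fitted alone (13377 genes), and -0.05 with at least 10 counts in every sample. Between sample groups 1 and 4, 1 gene in place of 5 differed in its acid change between the lines. There 3248 of all 15273 tested genes did so, in place of 6120 of 14777. In NRK-49F, 20 list genes were called in sample group 4 and 22 in sample group 6, in place of 37, with fewer samples in each fit. Of all tested genes, 1201 of 13812 were called in group 4 and 2205 of 13812 in group 6, in place of 4270 of 14777. Within sample groups, too small for the permutation test to pass, the log2 difference of the Tfrc to Fth1 ratio was -1.47 (group 1), -1.72 (group 3), -2.25 (group 4) and -1.16 (group 6). For the Fth1 to Ftl1 ratio it was -1.82, -2.37, -0.55 and -0.35. Tfrc in NRK-49F also passed with DESeq2 (adjusted p = 0.0439), the likelihood ratio test (edgeR adjusted p = 0.0461), with sample group as a block (-0.52, edgeR adjusted p = 0.0183) and without A034, A052, A055 or A056, with log2 values of -0.45 to -0.54. The difference between lines passed for Steap3 without A023 (0.34) and for Aco1 without A024 (-0.36), and the cause was not tested. A planned ratio of Slc11a2 to Slc40a1 was not run. No paired analysis was possible because the groups compared share no replicate codes.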

Other observations

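Over the 23 samples, the genes whose log2 level ran most like each iron gene were searched among 9949 genes whose mean reached 5 FPM. The coefficients are descriptions, since line and pH are shared by all genes and set most of them. Ftl1 ran most like Ripor2 (Pearson r = 0.989) and Sqstm1 (0.986), the autophagy receptor p62. Fth1 ran most like Rrad (0.993), a small GTPase gene, and Pgam1 (0.990), a glycolytic enzyme. Tfrc had the lowest top coefficients, with Zhx1 (0.920) and Rabgap1l (0.918). Steap3 ran most like Pabpc4 (0.994) and Dap (0.991), and Slc11a2 most like Lsm14a (0.983) and RGD1564171 (0.983). Hmox1 ran most like Pgm1 (0.980) and Slc29a1 (0.979), Aco1 like Plxna4 (0.972) and Efna2 (0.971), and Ireb2 like Prrg1 (0.988) and Top2b (0.985). The r of these pairs was not tested.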
